A study of Mus musculus with 14 samples.

Results

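Long intergenic noncoding RNA (lincRNA) regions of intermediate length are the subject here. The array's files name a lincRNA probe by the chromosome, start, end and strand of the region it was designed for, and a region was taken as a member if its end minus its start lay between 10000 and 50000 bp. The value table held 1855 such regions, read by 7145 probes, out of 4602 lincRNA regions on the array. Of the others, 2199 regions were shorter than 10 kb and 548 were longer than 50 kb. A further 3 regions of 10 to 50 kb and 33 of their probes appeared in the scanner files without a row in the value table and were not analysed here. The members had a median length of 19350 bp, between 1 and 10 probes each (median 3), and lay on 20 chromosomes. Of the 1855 regions 927 were on the forward and 928 on the reverse strand. They covered 1201 separate intervals, because 654 intervals were represented once on each strand. Coordinates below come from the array's files and refer to mouse build mm9, with the strand as given there. Gene annotation of that build was not used here, so what lies beside or inside each region is not stated.

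A lincRNA is a transcript longer than a typical small RNA, made from DNA between protein-coding genes and not known to be translated. Many such regions were first drawn from chromatin marks of active transcription and not from full-length RNAs, so a region can hold several transcripts, several exons with introns between them, or transcripts on both strands. LincRNAs are on average made at lower levels than messenger RNAs and are often limited to few cell types. For that reason their levels in whole tissue can follow the cells the tissue holds.

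Intensities were measured on 1-colour Agilent arrays in 14 samples of ventricle, 1 sample per array. All mice were male C57BL/6 animals aged 8 weeks. In the MI groups the left anterior descending coronary artery was permanently tied, which causes a myocardial infarction (MI), and ventricular border zone was collected after 3 days (MI 3 days, n = 5 arrays) or 14 days (MI 14 days, n = 5 arrays). Sham mice had the operation without the ligation (n = 4 arrays), and the time at which their hearts were taken is not given. The study asked which long noncoding RNAs differ at these times after infarction. The design text counts 10 ligated and 5 sham mice, and 4 sham arrays were analysed. The protocols name poly-T bead purification of mRNA as well as 200 ng of total RNA as input to labelling, so it is not settled whether transcripts without a poly-A tail were labelled. Border zone was cut from whole ventricle and holds all cell types of the wall and scar, so fewer cells of a type and less RNA per cell cannot be told apart.

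A level below is the log2 intensity of a probe minus the 75th percentile of all noncontrol probes on the same array, so that 0 is the 75th percentile. Intensity also depends on the probe itself, so levels of different probes are not read as relative amounts of RNA. A change is the difference of 2 such levels on the log2 scale, fitted with limma over all 14 arrays, with its standard error (SE). Testing was limited to probes that the scanner output of every such array in 1 group or more called well above background, and a change passed if its Benjamini-Hochberg adjusted p over all 32261 tested probes was under 0.05. Each region was represented by the tested probe with its highest mean level. The other probes of the region served to show whether the region's readings moved together. Precision was limited by how many arrays there were, and the median SE of a change was 0.16 in either comparison with sham.

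Most regions gave low readings. Of the 1855 regions 1304 (70.3%) had at least 1 tested probe, while 551 had none. At the level of probes, 2989 of 7145 (41.8%) were tested, against 58.1% of all noncontrol probes. The median level of the tested member probes was -2.33, against -0.64 over all tested probes. In sham hearts the level of the tested regions ran from -6.49 to 8.48 with a median of -1.47, and 336 regions (25.8%) lay above 0, against 42.9% of all tested probes. In 1067 regions the highest probe was above background on all 10 arrays with scanner output. In 54 regions this held for the sham arrays only, in 45 for the MI 3 days arrays only and in 18 for the MI 14 days arrays only. The last 3 sets passed the filter through 1 group each, so a high reading in that group was a condition of their being tested. Each count below is therefore given over all 1304 tested regions and again over the 1067.

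The probes that read highest in sham hearts mostly showed no change that passed. Forward region chr14:78924115-78938125 read 8.30, 8.40, 8.50 and 8.71 on the sham arrays, and its mean was 8.49 ± 0.12 (SD, n = 5) at 3 days and 8.58 ± 0.37 (SD, n = 5) at 14 days. Forward region chr4:141527564-141547339 had a sham mean of 8.34 ± 0.19 (SD, n = 4), and it was the one among the highest-reading 5 that passed at 3 days, with a change of -0.43 ± 0.11 (SE, limma adjusted p = 0.0029). Interval chr12:73838608-73862621 was read by bright probes on both strands, at 8.06 ± 0.14 on the reverse and 7.69 ± 0.12 on the forward strand (SD, n = 4 sham arrays). Forward region chr6:83368261-83407280 had a sham mean of 7.83 ± 0.16 (SD, n = 4). In these last 3 regions neither time differed from sham past the threshold for the brightest probe. Dimmer probes of some of the 5 regions did pass as lower at 3 days. They were 2 of 4 tested probes in chr14:78924115-78938125, 2 of 4 on the reverse strand of chr12:73838608-73862621 and 1 of 3 on its forward strand. Their sham means ran from -3.57 to -0.04, and some were tested through their sham readings only. The regions nearest the length limits had few tested probes. The forward region just inside 10 kb, chr19:24978025-24988025, had no tested probe of its 1. The forward region just inside 50 kb, chr2:10237649-10287591 (49942 bp), had 1 tested probe of 6. Its sham mean of -1.42 ± 0.27 (SD, n = 4) lay near the median of -1.47 over the tested regions. Just outside, forward region chr3:21964899-21974885 (9986 bp) had none of 3 probes tested, and reverse region chr19:29546348-29596479 (50131 bp) had 1 of 3 tested, at -3.47 ± 0.25 in sham hearts (SD, n = 4).

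Marker RNAs of several cell types moved with the groups. At 3 days all 10 of 10 ventricular cardiomyocyte markers were lower than in sham (median change -1.22). Their summed linear level, relative to the 75th percentile, was 6267 to 7897 on the sham arrays, 3688 to 4402 at 3 days and 6341 to 8705 at 14 days, when 5 of the 10 were lower and none was higher (median change -0.31). All 3 atrial cardiomyocyte markers were lower at both times (median change -4.58 and -3.43), and their summed level was 4.84 to 29.4 on the sham arrays, 1.48 to 2.29 at 3 days and 1.99 to 5.87 at 14 days. Of 6 tested fibroblast markers 5 were higher at 3 days and 6 at 14 days (summed level 407.1 to 436.9 in sham hearts, 852.6 to 1183 at 3 days and 1101 to 1593 at 14 days), and all 5 proliferation markers were higher at 3 days (median change 4.50) with none past the threshold at 14 days. At 3 days 4 of 5 neutrophil markers (median change 3.43) and 5 of 7 macrophage markers (median change 1.56) were higher, and 1 of each was lower. The summed levels overlapped between the groups (neutrophils 207.9 to 227.7 in sham hearts and 191 to 271.1 at 3 days, macrophages 169.6 to 224 and 165.5 to 215). Each of these 2 sums rests mostly on 1 bright probe and hardly shows the other markers. In sham hearts Csf3r had a mean level of 7.711 (next neutrophil marker 1.344) and Itgam of 7.315 (next macrophage marker 4.888). Of 5 endothelial markers 1 was higher and 2 were lower at 3 days, and 1 was lower at 14 days. None of the 4 tested lymphocyte and 2 tested red blood cell markers passed at either time. Over all tested probes 65.2% passed at 3 days and 32.5% at 14 days. The part of the cell types in the changes of the lincRNA regions was not tested. Slides are known for 10 arrays on 3 slides, and the fit of those arrays with slide as a block is given with each comparison.

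At 3 days after infarction more lincRNA regions were lower than higher. Of the 1304 tested regions 716 (54.9%) passed against sham, where 65.2% of all tested probes did. Of these regions 130 (9.97%) were higher and 586 (44.9%) were lower, against 25.5% and 39.7% of all tested probes. The median change of the regions was -0.36, against -0.19 over all tested probes. Of the 1067 regions above background on all scanned arrays 108 were higher and 499 were lower (56.9% in all, against 66.7% of such probes), with a median change of -0.34. Changes reached 2-fold in 37 of those higher and 128 of those lower regions, and in 56 and 170 of all tested regions. The share of all tested probes that reached 2-fold was not counted, so these counts are not read as a trait of the regions. Sham and 3-day arrays were fully apart in 564 regions (43.3%, against 56.8% of all tested probes). The share of higher regions was thus smaller than that of all probes, and a test of that difference was not made. With 1 probe kept per transcript or region name, the share of all probes called was 66.1%. On the scanned arrays 578 regions passed without and 588 with slide as a block (89 higher and 499 lower with it). In these settings 54.5% and 50.8% of all tested probes passed. With normexp background correction and then quantile normalization on the scanned arrays, 443 regions passed (102 higher and 341 lower). In this setting, called normexp correction below, 47.8% of all tested probes passed. The median change of all 1304 regions was -0.40 on slide 2 and -0.44 on slide 3, each with 1 array per group. Over all tested probes it was -0.18 and -0.22.

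The share called was similar across lengths. At 3 days 54.5% of the tested members of 10 to 20 kb passed, 55.2% of those of 20 to 30 kb and 55.5% of those of 30 to 50 kb. LincRNA regions outside the limits gave 54.5% (shorter than 10 kb) and 52.1% (longer than 50 kb). The median change was -0.35, -0.37 and -0.36 in the 3 length classes of the members. None of these differences was tested.

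The rises described first are regions in which every tested probe passed upward. Forward region chr9:14460976-14488051 (27075 bp) read 0.22, -1.67, -2.38 and -1.24 on the sham arrays. It read 2.19, 2.52, 2.40, 2.68 and 2.43 at 3 days, and -0.74, -0.74, 0.09, -0.38 and -0.78 at 14 days. The sham arrays were spread over more than 2 log2 units while the 3-day arrays lay close together above all others. The change at 3 days was 3.71 ± 0.38 (SE, limma adjusted p = 1.33e-06), a 13.1-fold rise, and its 5 probes gave changes between 3.71 and 4.44. At 14 days the change of 0.76 ± 0.38 (SE, limma adjusted p = 0.146) did not pass for that probe, although 4 of the 5 probes did.

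Forward region chr17:95150800-95180650 (29850 bp) showed the same course with a lower start. Its sham arrays read -1.87, -1.71, -2.73 and -1.98, and its 3-day arrays 0.52, 1.45, 1.27, 1.65 and 1.51. By 14 days the readings were -1.92, -1.57, -1.05, -1.42 and -1.91. All 3-day arrays lay above the arrays of both other groups, which overlapped each other. The change at 3 days was 3.35 ± 0.26 (SE, limma adjusted p = 1.05e-07) and at 14 days 0.50 ± 0.26 (SE, limma adjusted p = 0.161). Its second probe, above background on 2 of 4 sham arrays and tested through its 3-day readings only, rose by 1.32. An overlapping forward region with 1 probe, chr17:95149413-95174473, changed by 3.27 ± 0.27 at 3 days (SE, limma adjusted p = 1.92e-07); since the regions share sequence, this is not a separate transcript for certain.

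Forward region chr15:77164450-77201325 (36875 bp) rose at both times. The sham arrays read -0.69, -0.36, -0.62 and -0.19, the 3-day arrays 1.80, 1.86, 1.96, 1.91 and 1.89, and the 14-day arrays 0.78, 0.63, 0.74, 0.80 and 0.44. No array of one group overlapped another group, with the 14-day arrays in between. The change was 2.35 ± 0.11 at 3 days (SE, limma adjusted p = 1.78e-09) and 1.14 ± 0.11 at 14 days (SE, limma adjusted p = 1.36e-05), and all 5 probes passed upward at both times. Reverse region chr4:146507925-146532650 (24725 bp) rose at 3 days by 1.80 ± 0.09 (SE, limma adjusted p = 3.5e-09), from -0.51 ± 0.11 (SD, n = 4) to 1.30 ± 0.15 (SD, n = 5), with 5 of 5 probes between 1.72 and 2.08. Its 14-day change of 0.24 ± 0.09 (SE, limma adjusted p = 0.0623) did not pass. Reverse region chr5:22890322-22939119 (48797 bp) rose by 1.72 ± 0.17 at 3 days (SE, limma adjusted p = 1.05e-06) on all 3 of its probes.

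In 3 further rises with concordant probes the starting level was at background. Reverse region chr4:88745770-88774130 read -6.57, -4.37, -6.16 and -5.43 in sham hearts and -0.96, -3.49, -2.46, -2.94 and -3.42 at 3 days. It was not well above background on any of the 4 sham arrays, so its rise is given as at least 3.30-fold, set against the dimmest signals measured above background on the same arrays (limma adjusted p = 0.000342). The region was tested only through its 3-day readings, as was chr10:117021051-117038683 below, and for a region that passed the filter through the group where it is high the p is no separate support. Every tested probe of both regions passed the filter that way, so the agreement of their probes is no separate support either. Reverse region chr5:91480533-91502237 was likewise not well above background in sham hearts, at a mean of -5.62 ± 0.71 (SD, n = 4), and was tested through its MI readings. It rose at least 3.06-fold at 3 days (limma adjusted p = 9.72e-06) and at least 1.97-fold at 14 days (limma adjusted p = 0.00059), with all 3 probes passing at both times. These probes were all tested through MI readings, where they were high, so neither the p nor their agreement is separate support. Forward region chr10:117021051-117038683 was above background on 1 of 4 sham arrays, 2 of 2 scanned 3-day arrays and 1 of 4 scanned 14-day arrays. Its mean went from -4.50 ± 0.25 (SD, n = 4) to -2.10 ± 0.34 (SD, n = 5) at 3 days, a change of 2.40 ± 0.17 (SE, limma adjusted p = 5.14e-08) with 5 of 5 probes upward. With normexp background correction on the scanned arrays, this change was 0.85 and still passed. Under that setting 41 of the 76 changes named here became smaller by more than 1.5 times, and 10 that had passed no longer did. It differs from the main fit in background correction, quantile normalization and the arrays used, and these were not separated.

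**Figure D1:**
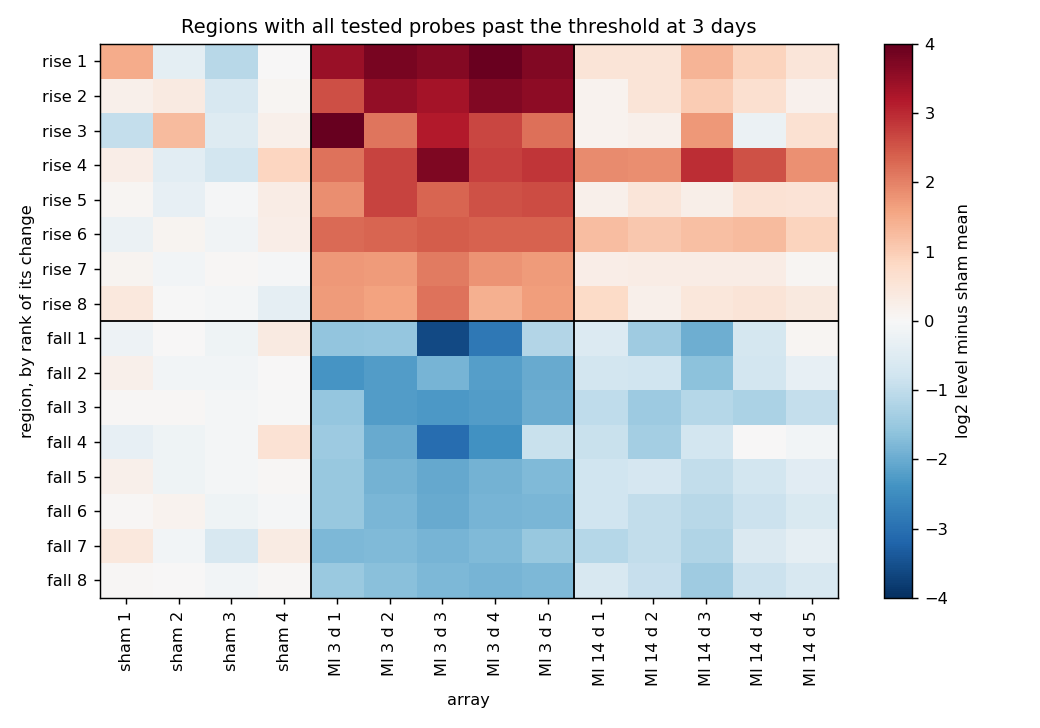
Level of the 16 regions with the highest and lowest concordant changes at 3 days (rows, rises 1 to 8 and falls 1 to 8) on each of the 14 arrays (columns, grouped as sham, MI 3 days and MI 14 days). Colour gives the level minus the mean of the 4 sham arrays (log2), limited to 4 either way; the 5 MI 3 days columns carry the strongest colours in most rows, and the MI 14 days columns are paler in most. In chr4:88745770-88774130 (rise 3) and chr5:91480533-91502237 (rise 4) no sham array was well above background.

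Among the named regions read by 1 tested probe, forward region chr1:193815525-193825775 (10250 bp) had the rise with the smallest error. It read 0.21, -0.05, -0.24 and -0.17 in sham hearts, 2.48, 2.66, 2.70, 2.75 and 2.57 at 3 days, and 0.13, 0.30, 0.46, 0.44 and -0.01 at 14 days. The rise at 3 days was 2.70 ± 0.12 (SE, limma adjusted p = 1.16e-09). At 14 days the change of 0.33 ± 0.12 (SE, limma adjusted p = 0.0444) passed, although the 14-day arrays overlapped the sham arrays. Reverse region chr4:46583780-46614788 went from -4.23 ± 0.47 (SD, n = 4) to -1.83 ± 0.45 (SD, n = 5) at 3 days, a change of 2.40 ± 0.31 (SE, limma adjusted p = 1.15e-05). Forward region chr17:10057283-10075014 was not well above background in sham hearts and rose at least 3.08-fold at 3 days (limma adjusted p = 0.000113) and at least 2.62-fold at 14 days (limma adjusted p = 0.00106). Both it and chr4:46583780-46614788, above background on 2 of 4 sham arrays, were tested through their 3-day readings only. No second probe checks these regions.

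Falls at 3 days were more numerous than rises. Reverse region chr10:39666719-39679959 (13240 bp) read 1.56, 1.27, 1.27 and 1.37 on the sham arrays and -0.997, -0.85, -0.49, -0.82 and -0.64 at 3 days. At 14 days it read 0.64, 0.56, -0.27, 0.63 and 1.04, between the other groups without overlap. It fell by 2.13 ± 0.20 at 3 days (SE, limma adjusted p = 6.63e-07) and its 14-day change was -0.85 ± 0.20 (SE, limma adjusted p = 0.00597), with 3 of 3 probes downward at both times. Fitted on the scanned arrays with slide as a block, the 14-day change was -0.86 and no longer passed (limma adjusted p = 0.0801).

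Reverse region chr5:122048289-122068947 (20658 bp) was among the brighter regions that fell. It read 3.28, 2.93, 3.02 and 3.12 in sham hearts, 1.56, 1.19, 1.03, 1.21 and 1.31 at 3 days, and 2.31, 2.41, 2.10, 2.36 and 2.64 at 14 days. The 3 groups did not overlap, and all 3 probes fell by between 1.74 and 1.83 at 3 days. The fitted change was -1.83 ± 0.12 at 3 days (SE, limma adjusted p = 3.39e-08) and -0.72 ± 0.12 at 14 days (SE, limma adjusted p = 0.000814). An overlapping reverse region with 1 probe, chr5:122047900-122065325, changed by -2.49 ± 0.18 at 3 days (SE, limma adjusted p = 5.67e-08).

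Forward regions chr4:11899775-11931875 and chr4:11893711-11921443 overlap each other and fell together. The first read 1.17, 1.25, 0.95 and 1.08 in sham hearts, -0.40, -0.70, -0.91, -0.75 and -0.73 at 3 days, and 0.33, 0.14, 0.01, 0.26 and 0.51 at 14 days. Its change was -1.81 ± 0.12 at 3 days (SE, limma adjusted p = 2.59e-08), with 5 of 5 probes downward, and that of the second region was -1.72 ± 0.14 (SE, limma adjusted p = 1.64e-07), with 3 of 3 probes downward. At 14 days both were still lower, by 0.86 and 0.90. Forward region chr7:4827340-4863315, with 10 probes of which 5 were tested, fell from 3.91 ± 0.49 (SD, n = 4) to 2.17 ± 0.13 (SD, n = 5) at 3 days, a change of -1.74 ± 0.22 (SE, limma adjusted p = 8.69e-06) shared by all 5 tested probes. Forward region chrX:93154123-93164481 changed by -1.96 ± 0.39 (SE, limma adjusted p = 0.000573), and its 3-day arrays were spread from -4.39 to -2.24.

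Of the named regions with 1 tested probe, reverse region chr5:120253747-120281800 had the fall with the smallest error. It read 0.21, 0.21, 0.35 and 0.19 in sham hearts, -2.17, -2.14, -2.06, -2.24 and -1.95 at 3 days, and -0.60, -0.84, -1.08, -0.92 and -0.64 at 14 days. The groups were far apart compared with their spread. The change was -2.35 ± 0.10 at 3 days (SE, limma adjusted p = 1.15e-09) and -1.05 ± 0.10 at 14 days (SE, limma adjusted p = 1.64e-05). Forward region chr1:72281533-72299401 was not well above background on either scanned 3-day array, and its fall is given as at least 2.54-fold (limma adjusted p = 0.000678). It was tested through its sham readings only, so a high sham reading was a condition of the test. Reverse region chr1:155219662-155231912 changed by -2.51 ± 0.46 (SE, limma adjusted p = 0.000295), with 1 sham array at -0.12 and the others between -2.73 and -2.11. With normexp correction on the scanned arrays that change was -0.70 and did not pass (limma adjusted p = 0.0819).

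**Figure D2:**
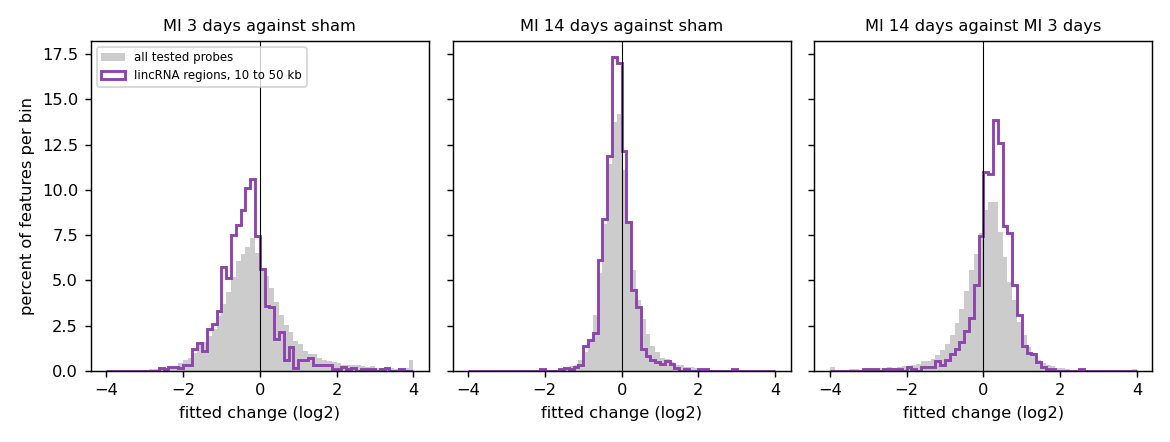
Fitted change (log2, with limma) of the tested lincRNA regions of 10 to 50 kb in the 3 comparisons, beside the same for all 32261 tested probes. The regions' median is -0.36 at 3 days against sham, -0.12 at 14 days against sham and 0.28 at 14 days against 3 days, in each case farther from 0 than the median of all tested probes.

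In some stretches most tested members were lower at 3 days, and a stretch of chromosome 2 had the highest share. Members were joined into runs when no gap between neighbours exceeded 1 Mb, and 20 runs held 8 or more tested regions. The run from chr2:173105462 to chr2:177813140 held 25 members, of which 21 were tested. Of those 18 (85.7%) were lower at 3 days and 1 was higher, against 44.9% of all tested regions and 39.7% of all tested probes lower. The run's median change was -1.01 at 3 days and -0.40 at 14 days. At 14 days 7 of its regions were lower and none was higher, against 13.7% of all tested regions and 19.8% of all tested probes lower. This run was singled out after its values were seen, as the one with the highest share of lower regions, and no test was made of it. The next highest shares at 3 days were 77.8% (7 of 9, from chr5:121759042) and 70.0% (7 of 10, from chr17:32035750). Reverse region chr2:175898018-175930211 read -0.08, -0.09, -0.22 and -0.15 in sham hearts, -1.68, -2.36, -2.44, -2.37 and -2.12 at 3 days, and -1.16, -1.58, -1.29, -1.42 and -1.09 at 14 days. Its change was -2.06 ± 0.15 at 3 days (SE, limma adjusted p = 5.32e-08) and -1.17 ± 0.15 at 14 days (SE, limma adjusted p = 0.000103).

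On the opposite strand of that interval, forward region chr2:175908275-175927625 changed by -2.15 ± 0.48 at 3 days (SE, limma adjusted p = 0.00143), with sham arrays from -2.77 to -2.18 and 3-day arrays from -6.15 to -3.72. It was above background on 1 of the 2 scanned 3-day arrays and was tested through its sham readings only. Reverse region chr2:176874642-176906929 changed by -1.63 ± 0.09 at 3 days (SE, limma adjusted p = 5.8e-09) and -0.87 ± 0.09 at 14 days (SE, limma adjusted p = 2.06e-05), with 3 of 3 probes downward at both times. Forward region chr2:176211325-176231650, with 1 probe and likewise tested through its sham readings only, changed by -1.60 ± 0.21 (SE, limma adjusted p = 1.44e-05) and -1.03 ± 0.21 (SE, limma adjusted p = 0.00245). The one member of the run that was higher was reverse region chr2:174088550-174109425, whose probes disagreed as described further on. Whether probes of neighbouring regions here read near-identical sequence was not tested, since probe sequences were not used.

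At 14 days after infarction fewer regions differed from sham. Of the 1304 tested regions 255 (19.6%) passed, where 32.5% of all tested probes did. Of these 76 (5.83%) were higher and 179 (13.7%) were lower, against 12.8% and 19.8% of all tested probes. The median change was -0.12, against -0.09 over all tested probes. Of the 1067 regions above background on all scanned arrays 67 were higher and 161 were lower (21.4% in all, against 35% of such probes). Changes reached 2-fold in 13 of those higher and 5 of those lower regions, and in 21 and 11 of all tested regions, again without a count over all tested probes. The groups' arrays did not overlap in 186 regions (14.3%, against 27.4% of all tested probes). On the scanned arrays 204 regions passed without slide as a block and 120 with it (37 higher and 83 lower). In these settings 27.1% and 15.7% of all tested probes passed. The median change of all 1304 regions was -0.12 on slide 1 and -0.16 on slide 3, against -0.10 and -0.11 over all tested probes. The split depended on the scaling: when the 75th percentile was taken over tested probes alone, 95 regions were higher and 112 were lower, and 45.9% of the calls were upward against 29.8% with the percentile over all noncontrol probes. LincRNA regions shorter than 10 kb gave 18.9% called and those longer than 50 kb gave 19.2%.

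Several regions first seen as higher at 3 days were still higher at 14 days. Reverse region chrX:18734106-18744367 (10261 bp) read -2.90, -2.81, -2.76 and -3.01 in sham hearts, -1.44, -1.05, -1.04, -1.41 and -1.14 at 3 days, and -1.67, -1.43, -1.84, -1.21 and -1.57 at 14 days. Both MI groups lay above all sham arrays and overlapped each other. The changes were 1.65 ± 0.13 at 3 days (SE, limma adjusted p = 1.17e-07) and 1.33 ± 0.13 at 14 days (SE, limma adjusted p = 1.68e-05), with 3 of 3 probes upward at both times. Forward region chr6:57583950-57624216 changed by 1.11 ± 0.16 at 3 days (SE, limma adjusted p = 4.01e-05) and by 1.05 ± 0.16 at 14 days (SE, limma adjusted p = 0.00046). Forward region chr12:110842154-110883594 changed by 1.02 ± 0.12 (SE, limma adjusted p = 7.12e-06) and 0.94 ± 0.12 (SE, limma adjusted p = 0.000144). For these 3 regions the difference between the MI times was -0.33, -0.06 and -0.08, and of these the first passed (limma adjusted p = 0.0345).

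Reverse region chr18:63355660-63369610 had the highest concordant change after that of chr5:91480533-91502237 at 14 days. Its arrays read -3.76, -4.18, -3.89 and -3.43 in sham hearts, -3.03, -2.15, -3.40, -2.41 and -2.09 at 3 days, and -0.48, -1.89, -1.43, -2.12 and -2.76 at 14 days. The MI groups overlapped and the 14-day arrays were widely spread. The change at 14 days was 2.08 ± 0.39 (SE, limma adjusted p = 0.00147). It was above background on 2 of 4 sham arrays and was tested through its MI readings. Since it was high in those groups, the p is no separate support. The other 4 tested probes were not well above background on any sham array, so no size is given for them. They too were tested through their MI readings.

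Of the regions named for a rise at 14 days, some passed at that time and not at 3 days, and the difference between the times was tested in each. It passed in the 4 regions that follow and not in chr8:122728333-122752130, described below. Forward region chr10:83185606-83225506 (39900 bp) read -0.40, -0.27, -0.14 and -0.03 in sham hearts, -0.30, -0.35, -0.57, -0.26 and -0.32 at 3 days, and 0.39, 0.52, 0.66, 0.58 and 0.49 at 14 days. The 14-day arrays lay above all others. The change at 14 days was 0.74 ± 0.09 (SE, limma adjusted p = 0.000108), with 3 of 3 probes upward, and the difference between 14 and 3 days was 0.89 ± 0.09 (SE, limma adjusted p = 2.21e-06). Reverse region chr1:173353316-173367449, with 1 probe, changed by 1.70 ± 0.21 at 14 days (SE, limma adjusted p = 9.51e-05) and by 0.18 ± 0.21 at 3 days (SE, limma adjusted p = 0.478), and the times differed by 1.52 ± 0.20 (SE, limma adjusted p = 2.49e-05). Reverse region chr1:71730016-71740391 gave 0.97 ± 0.17 at 14 days (SE, limma adjusted p = 0.000941) and 0.16 ± 0.17 at 3 days (SE, limma adjusted p = 0.433), with a difference of 0.82 (limma adjusted p = 0.000687). Forward region chr1:85117750-85129200 gave 0.82 ± 0.21 (SE, limma adjusted p = 0.00945) and -0.04 ± 0.21 (SE, limma adjusted p = 0.87) in the same order, with a difference of 0.87 (limma adjusted p = 0.0023), and its 14-day change did not pass with normexp correction (0.21, limma adjusted p = 0.0969).

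The reverse pattern, a fall seen at 14 days and not at 3 days, was found in forward region chr9:78107225-78118850 (11625 bp). It read 0.94, 0.82, 1.15 and 1.05 in sham hearts, 1.54, 0.82, 1.34, 0.89 and 0.82 at 3 days, and 0.12, -0.02, -0.18, 0.18 and 0.62 at 14 days. The 14-day arrays lay below all others, on both tested probes. The change was -0.84 ± 0.18 at 14 days (SE, limma adjusted p = 0.00305) and 0.09 ± 0.18 at 3 days (SE, limma adjusted p = 0.665), with a difference between the times of -0.94 ± 0.17 (SE, limma adjusted p = 0.000358).

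The lowest concordant change at 14 days was in forward region chr13:53100475-53113850 (13375 bp), which fell at both times. It read 0.63, 0.38, 0.52 and 0.39 in sham hearts, -0.08, -1.13, -0.98, -0.92 and -1.37 at 3 days, and -0.45, -0.81, -1.48, -0.90 and -0.12 at 14 days. Both MI groups lay below sham and overlapped each other. The changes were -1.38 ± 0.27 at 3 days (SE, limma adjusted p = 0.00042) and -1.23 ± 0.27 at 14 days (SE, limma adjusted p = 0.00333), each on 3 of 3 probes. Forward region chr17:29571806-29603008 changed by -1.26 ± 0.21 (SE, limma adjusted p = 0.000121) and -0.84 ± 0.21 (SE, limma adjusted p = 0.00772), and with slide as a block the 14-day change was -0.84 and did not pass (limma adjusted p = 0.101). Forward region chr9:66976750-67014625, with 1 probe and tested through its sham readings only, changed by -1.90 ± 0.24 (SE, limma adjusted p = 1.05e-05) and -1.50 ± 0.24 (SE, limma adjusted p = 0.000549). Forward region chr13:54399275-54445825, with 1 of 5 probes tested, changed by -1.64 ± 0.24 (SE, limma adjusted p = 3.64e-05) and -0.94 ± 0.24 (SE, limma adjusted p = 0.0085).

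In 2 regions named for a rise at 14 days the starting level was at background. Reverse region chr8:122728333-122752130 was not well above background on any sham array and was higher at 14 days by at least 1.57-fold (limma adjusted p = 0.0233). At 3 days its change was 0.84 (limma adjusted p = 0.06) and the difference between the times was 0.37 ± 0.35 (SE, limma adjusted p = 0.389), so neither of these passed. Both this region and the next were tested through their 3-day readings only. The fitted change at 14 days was 1.21 over all arrays, and it did not pass with normexp correction, slide as a block or no filter on dim probes. Without sham replicate 3 it was 0.78 (limma adjusted p = 0.0611) and without MI 14 days replicate 3 it was 1.08 (limma adjusted p = 0.0558), and neither passed. Forward region chr7:134595900-134610975 was not well above background on any scanned sham or 14-day array, so no fold is given at 14 days. It rose at least 1.25-fold at 3 days (limma adjusted p = 5.12e-05).

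Between the MI times more regions were higher than lower at 14 days. Of the 1304 tested regions 581 (44.6%) differed between 14 and 3 days, where 55.6% of all tested probes did. Of these 473 were higher and 108 were lower at 14 days, and 32.7% and 22.9% of all tested probes were higher and lower. Of the 1067 regions above background on all scanned arrays 418 were higher and 90 were lower (47.6% in all, against 57.7% of such probes). The median difference was 0.28, against 0.13 over all tested probes, and the arrays did not overlap in 313 regions (24.0%, against 40.0%). On the scanned arrays 378 regions passed without slide as a block and 284 with it (225 higher and 59 lower). In these settings 38.4% and 28.3% of all tested probes passed. The median difference of all 1304 regions was 0.31 on slide 3, the one slide with both MI times, against 0.13 over all tested probes. With normexp correction on the scanned arrays 169 were higher and 71 lower, so 70.4% of the calls were upward against 81.4%. Of all tested probes 32.7% passed with that correction. This comparison shares its 3-day arrays with the comparison of 3 days with sham, so a high 3-day reading enters both.

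Regions with the highest concordant differences had fallen at 3 days. Reverse region chr17:32035750-32056000 differed by 1.85 ± 0.11 (SE, limma adjusted p = 1.92e-08), reverse region chr1:69531191-69570566 by 1.48 ± 0.13 (SE, limma adjusted p = 1.02e-06), reverse region chr5:77188300-77205150 by 1.47 ± 0.26 (SE, limma adjusted p = 0.000318) and reverse region chr4:101010948-101032148 by 1.41 ± 0.13 (SE, limma adjusted p = 9.54e-07). Their changes at 3 days against sham were -1.46, -1.69, -1.64 and -1.25 in that order. At 14 days the first of these passed against sham, as given further on, and the others did not, with changes of -0.21, -0.17 and 0.16 in the same order. The lowest differences with 2 or more concordant probes were among the rises described above: -2.96 ± 0.36 in chr9:14460976-14488051 (SE, limma adjusted p = 1.29e-05), -2.85 ± 0.24 in chr17:95150800-95180650 (SE, limma adjusted p = 6.01e-07) and -1.99 ± 0.16 in chr10:117021051-117038683 (SE, limma adjusted p = 3.68e-07). Forward region chr17:95149413-95174473, with 1 probe, had a lower difference than these, at -3.08. Reverse region chr4:88745770-88774130, not well above background at 14 days, was at least 2.88-fold lower than at 3 days (limma adjusted p = 0.00125), and with slide as a block this difference did not pass (limma adjusted p = 0.0945).

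In 5 regions the probe with the highest mean level passed in opposite directions at the 2 times. In 2 the level was higher at 3 days and lower at 14 days, and in 3 it was lower and then higher. The same share over all tested probes was not counted, so the count is not read as a trait of these regions. Reverse region chr17:32035750-32056000 (20250 bp) read 1.51, 1.70, 1.55 and 1.91 in sham hearts, 0.26, 0.18, 0.21, 0.16 and 0.23 at 3 days, and 1.74, 2.16, 2.25, 2.23 and 1.93 at 14 days. The 3-day arrays were all below sham, while the 14-day arrays overlapped the sham range at its upper end. Its change was -1.46 ± 0.11 at 3 days (SE, limma adjusted p = 1.12e-07) and 0.39 ± 0.11 at 14 days (SE, limma adjusted p = 0.017). The 14-day change did not pass without sham replicate 1 (0.34, limma adjusted p = 0.0566) or without sham replicate 3 (0.36, limma adjusted p = 0.051). The region's second tested probe changed by 0.14 ± 0.14 at 14 days (SE, limma adjusted p = 0.474) and did not pass.

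Reverse region chr11:16831925-16851121 went the other way. It read -1.88, -1.84, -2.62 and -2.52 in sham hearts, -0.99, -0.75, -0.89, -0.70 and -0.88 at 3 days, and -2.65, -2.57, -2.78, -3.09 and -2.55 at 14 days. The rise at 3 days was clear of both other groups, whereas the 14-day arrays overlapped sham. The changes were 1.38 ± 0.17 (SE, limma adjusted p = 6.82e-06) and -0.51 ± 0.17 (SE, limma adjusted p = 0.0307). The second was lost without any one of sham replicates 1 and 2 and MI 14 days replicates 3 and 4, where it lay between -0.50 and -0.39. The region's other tested probe changed by -0.43 ± 0.36 at 14 days (SE, limma adjusted p = 0.397) and did not pass. Forward region chr3:85842798-85887216 changed by -0.41 ± 0.11 (SE, limma adjusted p = 0.00519) and 0.46 ± 0.11 (SE, limma adjusted p = 0.00661); with quantile normalization the first value was -0.27 and still passed, while neither passed with normexp correction and the second did not pass with slide as a block. Reverse region chr14:49314574-49358174, with sham arrays at 4.19, 4.42, 4.08 and 3.98, changed by 0.35 ± 0.12 (SE, limma adjusted p = 0.023) and -0.36 ± 0.12 (SE, limma adjusted p = 0.04). Both of its calls were lost under several of the other settings, among them the scanned arrays alone (0.28 and -0.36, limma adjusted p = 0.133 and 0.0522). The first was also lost without any one of sham replicates 3 and 4 and MI 3 days replicates 1 and 2 (lowest 0.29). The second was lost without any one of sham replicates 1 to 3, MI 3 days replicate 4 and MI 14 days replicates 2 to 5 (between -0.39 and -0.27).

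**Figure D3:**
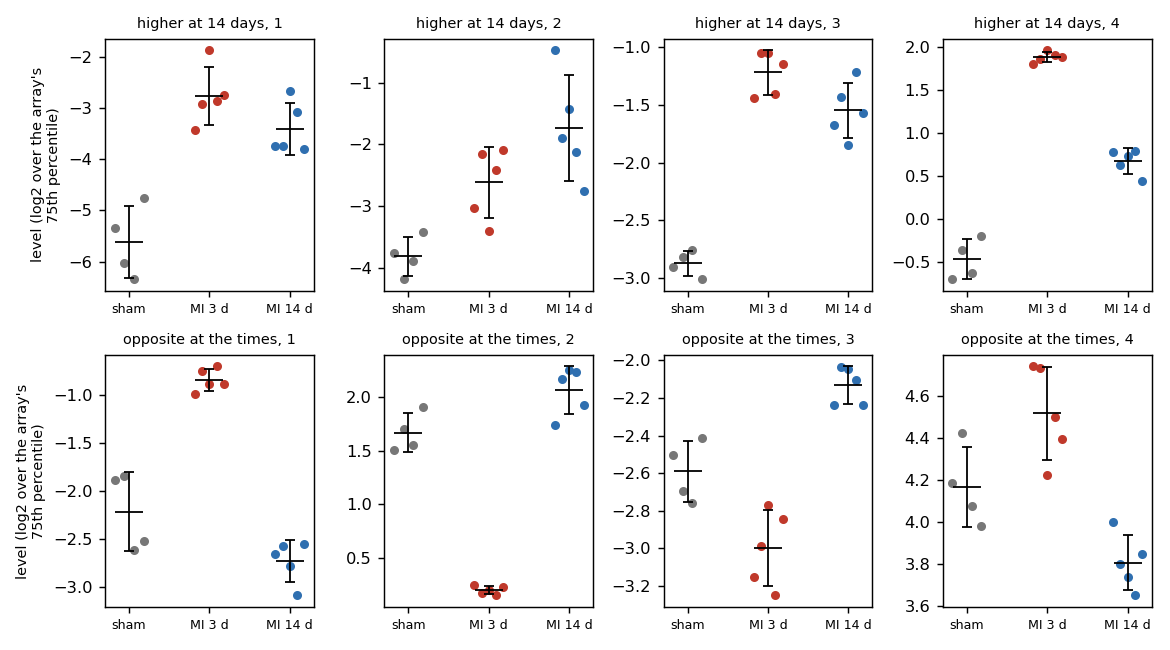
Level (log2 intensity minus the array's 75th percentile) on each array, by group, of the 4 regions with the highest concordant changes at 14 days and 4 of the 5 regions that passed in opposite directions at the 2 times. Points are arrays (4 sham, 5 MI 3 days, 5 MI 14 days) and bars are group means ± SD, on a separate vertical scale in each panel; in chr17:32035750-32056000 the 3-day arrays sit near 0.2, below sham readings of 1.51 to 1.91 and 14-day readings of 1.74 to 2.25.

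The probes of a region often differed in their changes. Of the 1304 tested regions 746 had 2 or more tested probes. At 3 days all probes had the same sign of change in 500 of them (67.0%), all passed in the same direction in 195 (43 upward and 152 downward), some but not all passed in 1 direction in 386, none passed in 117, and probes passed in both directions in 48. At 14 days all probes passed in the same direction in 15 regions upward and 31 downward, and 7 regions had probes past the threshold in both directions. Over the 14 arrays the median correlation (Pearson's r) between the probes of a region was 0.42, with quartiles of 0.12 and 0.70; it was above 0.8 in 123 regions and below 0 in 126. These correlations are descriptions over arrays that share the group differences.

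Agreement was lower where the probes of a region differed more in level. The mean levels of the probes of a region differed by a median of 1.95 log2 units, by as much as 12.49, and by 8-fold or more in 207 regions. All probes had the same sign of change at 3 days in 73.2% of the regions whose probes lay within 2-fold of each other, in 69.1% of those between 2-fold and 8-fold and in 58.0% of those at 8-fold or more. Of the 48 regions with probes past the threshold in both directions, 1, 22 and 25 fell into these classes. The classes were not matched for the number of tested probes per region, on which both the range of levels and the share of equal signs depend. The differences between the classes were not tested.

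**Figure D4:**
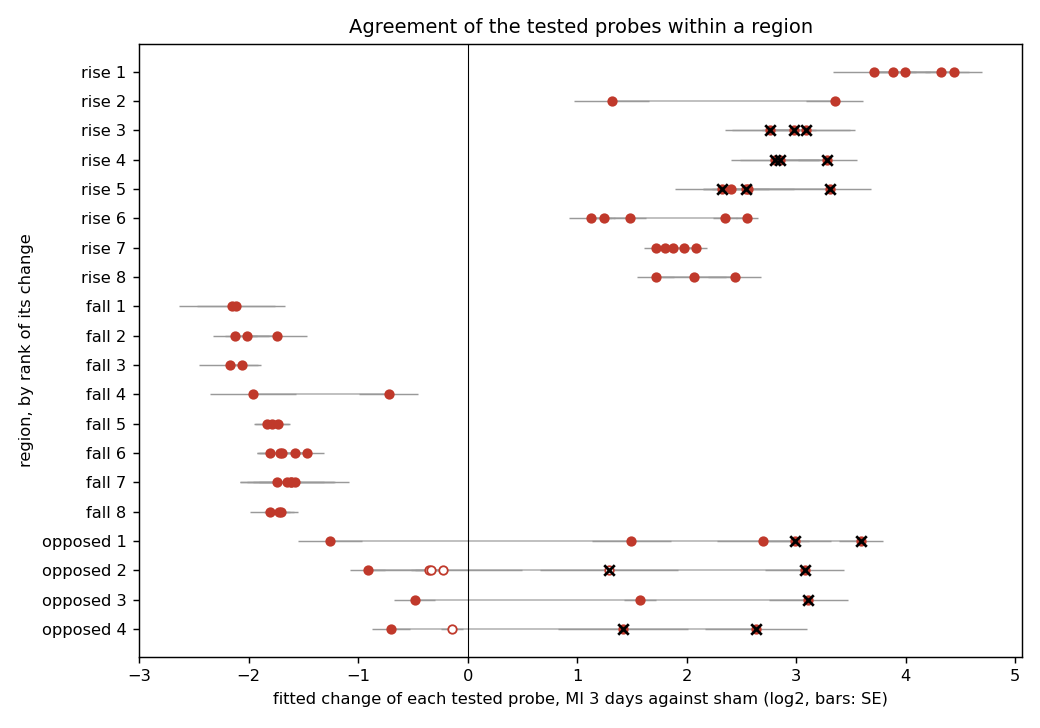
Change at 3 days against sham (log2, horizontal axis) of every tested probe of 8 regions that rose and 8 that fell with all tested probes past the threshold, and of 4 regions with probes past it in both directions, 1 row per region by rank. Points are probes (filled past the threshold, open not), bars are SE, and a cross marks a probe not well above background on any scanned array of 1 of the groups, whose size is not measured; the probes of the last 4 rows lie on both sides of 0.

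Reverse region chr2:174088550-174109425 (20875 bp) had probes past the threshold in both directions at 3 days, with 4 of 5 tested probes higher and 1 lower. The highest probe read -3.66, -3.13, -2.99 and -2.82 in sham hearts and -1.92, -2.21, -2.19, -0.095 and -1.89 at 3 days, so MI 3 days replicate 4 stood above the rest. Of the 4 probes that were higher 2 were not well above background on any sham array, and no size is given for them. Apart from the highest probe, the probes that were higher were tested through their 3-day readings only. Their rises are therefore no separate support. The probe that fell, by 1.26 ± 0.29 (SE, limma adjusted p = 0.00174), was above background on all sham arrays. In forward region chr19:53517903-53540753 (10 probes, 6 tested), 1 probe that was not well above background on any sham array was higher (limma adjusted p = 4.67e-06). That probe was tested through its 3-day readings only, so the p is no separate support. Another fell by 0.91 ± 0.16 (SE, limma adjusted p = 0.000178), while the highest probe gave -0.34 ± 0.15 (SE, limma adjusted p = 0.0623).

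Forward region chr9:96664617-96683617 had its highest probe at 1.57 ± 0.15 (SE, limma adjusted p = 5.68e-07) and another at -0.48 ± 0.19 (SE, limma adjusted p = 0.0334). At 14 days forward region chr9:118291593-118324230 split between its 2 tested probes: one changed by 1.39 ± 0.18 (SE, limma adjusted p = 0.000131) and the other by -0.72 ± 0.23 (SE, limma adjusted p = 0.0262). Both of these probes were above background on all scanned arrays. In the bright forward region chr3:87757295-87774970, at 6.21 ± 0.12 in sham hearts (SD, n = 4), the highest probe gave -0.23 ± 0.08 at 14 days (SE, limma adjusted p = 0.0424) and 3 others rose, by up to 0.90. With quantile normalization the first value was -0.06 (limma adjusted p = 0.615), and it did not pass under most of the other settings. Probes passed in both directions too in forward regions chr9:121845920-121858120 at 3 days and chr1:92412246-92423471 and, on the reverse strand, chr10:126818382-126856582 at 14 days. In chr9:121845920-121858120 the probes that were higher were tested through their 3-day readings only. Since a region can hold several transcripts and exons, its highest probe describes that probe's target and not the whole region.

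The strands of an interval showed little common change. Both strands had a tested region in 363 of the 654 intervals represented on both, 1 strand had one in 229 and neither in 62. At 3 days both strands passed in the same direction in 98 intervals (5 upward and 93 downward), in opposite directions in 26, 1 strand passed in 157 and neither in 82. Across the 363 intervals the changes of the strands had a Pearson's r of 0.09 at 3 days and 0.04 at 14 days, as descriptions over intervals measured on the same arrays. At 14 days both strands passed downward in 11 intervals, upward in none and in opposite directions in 3.

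In 2 intervals with high rises the strands passed in opposite directions. In interval chr17:95150800-95180650 the forward strand changed by 3.35 at 3 days and the reverse strand by -0.78 ± 0.19 (SE, limma adjusted p = 0.00261), from -1.59 ± 0.30 (SD, n = 4) to -2.37 ± 0.31 (SD, n = 5). In interval chr15:77164450-77201325 the forward strand changed by 2.35 and the reverse strand by -0.56 ± 0.17 (SE, limma adjusted p = 0.00967). Both intervals were singled out here after their values were seen. The 4 intervals named for the highest mean level over both strands showed smaller changes. In chr6:83368261-83407280 the forward strand changed by -0.04 ± 0.14 at 3 days (SE, limma adjusted p = 0.821), while the reverse strand changed by 0.51 ± 0.15 (SE, limma adjusted p = 0.00876). In chr12:119825125-119850750 the forward strand changed by -0.16 ± 0.11 (SE, limma adjusted p = 0.232), while the reverse strand changed by -0.51 ± 0.13 (SE, limma adjusted p = 0.00347). In chr5:34696192-34722842 and chr12:73838608-73862621 the brightest tested probe of neither strand passed at either time.

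**Figure D5:**
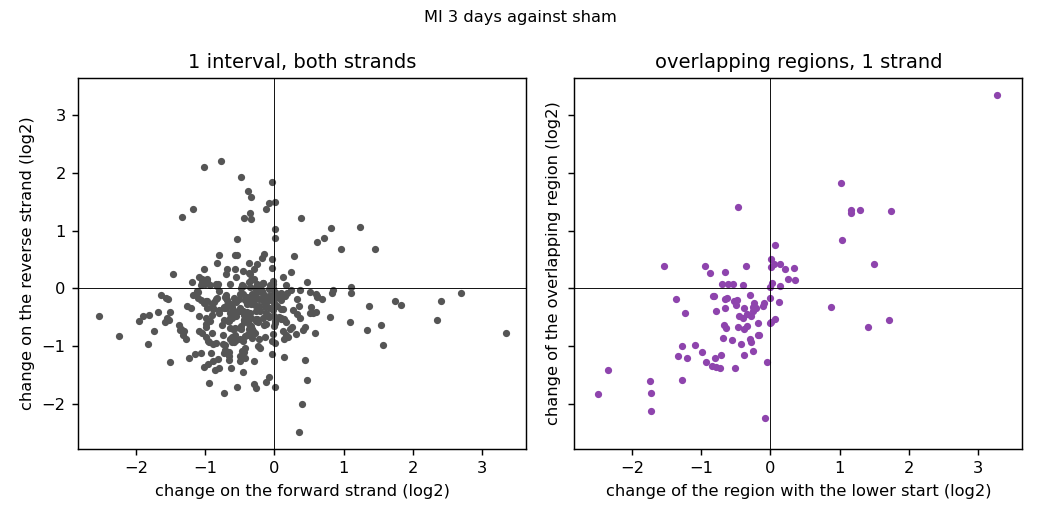
Change at 3 days against sham (log2). Left, the forward region (horizontal axis) against the reverse region (vertical axis) of the 363 intervals with both strands tested, with no common diagonal (r = 0.09); right, the region with the lower start against the other in the 96 pairs that overlap on the same strand (r = 0.67).

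Members that overlapped on the same strand moved together more closely. There were 172 such pairs among 304 members, and in 96 pairs both regions were tested. At 3 days both passed in the same direction in 34 pairs (7 upward and 27 downward) and in opposite directions in 6. Across the 96 pairs r was 0.67 at 3 days and 0.55 at 14 days, against 0.09 and 0.04 between strands, described over pairs whose regions share sequence and arrays. At 14 days 13 pairs passed in the same direction and none in opposite directions. Counts of regions may therefore contain some transcripts more than once.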

How the data were processed

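RNA was measured on 1-colour Agilent arrays. The value table deposited by the authors holds linear Cy3 intensities, not scaled between arrays (75th percentiles from 188.6 to 443). Scanner intensities existed for 10 arrays and came from Feature Extraction 10.7.3.1, background-subtracted per the file headers. Every single-spot probe had the same value in both (tolerance 1e-05). Here log2 was taken of the deposited intensities, and each array's 75th percentile over 55482 noncontrol probes was subtracted. limma 3.58.1 in R 4.3.3 was fitted to all tested probes in 3 groups, with Benjamini-Hochberg adjustment, and the fit was tested on simulated data. Flags for signals well above background came from the scanned arrays only (4 sham, 2 MI 3 days, 4 MI 14 days).

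Members and lists were chosen with earlier results of these data known. Regions named in the text were the highest and lowest changes with all tested probes past the threshold in 1 direction and no overlap of arrays, the same with 1 tested probe, the widest splits between probes, the brightest in sham, those opposed between the times, the brightest intervals read on both strands and those at the length limits. Bounds written as at least N-fold set the brighter group's mean against the higher of the dimmest signal above background and the probe's own reading. Alternatives were quantile normalization, another percentile, scanned arrays only, normexp, and slide or replicate block. Further ones were other filters, 2 groups only, the mean of a region's probes and each array left out. The normexp setting used median signals of the scanned arrays with an offset of 50, as no mean signal was used. Quantile normalization followed it, so normexp stands for these steps together. Replicate numbers occur in all groups, but arrays with the same number did not deviate together (r from -0.14 to 0.22), so they were not treated as pairs. The labels give 1 sample per array from mice, and p-values measure the spread between these samples.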

Additional observations from a re-analysis of the deposited data

Results flagged for a closer look

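Among 61 named regions and their 183 groups of 4 or 5 arrays, 8 had 1 array far from the rest by Dixon's criterion, which chance meets in about 1 in 20 groups. The regions were reverse chr4:146507925-146532650, where MI 3 days replicate 3 read 1.56 (others 1.21 to 1.28) and MI 14 days replicate 5 read -0.44 (others -0.25 to -0.22), forward chr7:4827340-4863315, where MI 3 days replicate 5 read 2.40 (others 2.06 to 2.14), and forward chr10:83185606-83225506, where MI 3 days replicate 3 read -0.57 (others -0.35 to -0.26). In reverse chr4:46583780-46614788 sham replicate 2 read -4.93 (others -4.05 to -3.96), and in reverse chr5:122047900-122065325 the same array read -0.84 (others -0.44 to -0.39). In reverse chr5:120253747-120281800 sham replicate 3 read 0.35 (others 0.19 to 0.21), and in reverse chr2:174088550-174109425 MI 3 days replicate 4 read -0.095 (others -2.21 to -1.89). No array was the outlying one in more than 2 of these.

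The change at 14 days differed from that at 3 days, in the opposite direction, in 4 named regions. They were named for passing in opposite directions at the 2 times and ranked by this difference, so the p-values are no separate support. The difference was -1.89 in reverse chr11:16831925-16851121 (limma adjusted p = 4.76e-07), 1.85 in reverse chr17:32035750-32056000 (limma adjusted p = 1.92e-08), 0.87 in forward chr3:85842798-85887216 (limma adjusted p = 1.24e-05) and -0.71 in reverse chr14:49314574-49358174 (limma adjusted p = 0.000173).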

How the results depend on the processing

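No named change that had passed reversed its direction under any setting run. Against 716, 255 and 581 called regions (3 days against sham, 14 days against sham, 14 against 3 days), leaving out 1 array at a time gave 636 to 730 (118 to 136 higher, 506 to 601 lower), 192 to 268 (57 to 80 higher, 123 to 196 lower) and 488 to 595 (387 to 491 higher, 99 to 110 lower). Without sham replicate 2 the 14-day count was 192. Scanned arrays alone gave 378 calls between the MI times (315 higher, 63 lower), on fewer arrays, where 38.4% of all tested probes passed. With normexp correction the counts were 443 at 3 days (341 lower) and 240 between the times (169 higher, 71 lower), where 47.8% and 32.7% of all tested probes passed. With slide as a block they were 120 at 14 days (37 higher, 83 lower) and 284 between the times (225 higher, 59 lower), where 15.7% and 28.3% of all tested probes passed. Centring on tested probes left 112 lower at 14 days. The replicate block gave 732, 261 and 598 and changed no count by over 1.5 times. The cause of these differences was not tested. The median change of all tested probes at 3 days was -0.19 and became -0.10 with quantile normalization. It was -0.06 with normexp and then quantile normalization on the scanned arrays, so small changes depend on the processing. Of the 76 named changes 60 kept direction and side of the threshold in every setting run. Why the others did not was not tested.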
